A study of Arabidopsis thaliana with 12 samples.

Results

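Loss of the 3 ARID subunits of the PEAT complexes was examined by comparing small RNAs in arid2/3/4 seedlings with those in wild-type (WT) seedlings along the 5 chromosomes of Arabidopsis thaliana. The comparison used 4 of 12 libraries, repeats 1 and 2 of arid2/3/4 and repeats 1 and 2 of WT, each mutant library set against the WT library of the same repeat. It covered the 4213 regions of 500 bp listed for both repeats, out of 5843 regions listed for repeat 1 and 4495 for repeat 2. The arid2/3/4 plants carried homozygous mutations in ARID2, ARID3 and ARID4, and the WT plants carried none. Another 3 mutants with 2 libraries each served to show where arid2/3/4 differed from them, namely epcr1/2 (homozygous in EPCR1 and EPCR2), nrpe1 and hda6, and nrpd1 was measured as well. Every library came from whole seedlings aged 10 days, grown at 22 °C in days of 16 h light and 8 h dark. The labels name no alleles, and the tables hold no transcripts, so the loss of the mutated genes could not be checked here. Nothing in the labels says that the repeats were separate cultures, so the p-values below measure the spread between these libraries, which may be technical.

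The PEAT complexes are built from PWWP, EPCR, ARID and TRB proteins and act in histone deacetylation and silencing of heterochromatin. ARID proteins are named after a domain that binds AT-rich DNA. In plants, RNA polymerase IV, whose largest subunit is NRPD1, makes the precursors of most heterochromatic small interfering RNAs. These guide DNA methylation at sites transcribed by RNA polymerase V, whose largest subunit is NRPE1. HDA6 is a histone deacetylase that also acts in silencing of repeats. Such small RNAs come mostly from transposons and satellite repeats, which are dense around centromeres and sparse on the arms.

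The sequences on which the comparison turned are shown first, as windows of 178 bases on the plus strand of the RefSeq TAIR10.1 assembly. The capitals mark, in each window, the 24-base word of the region with the most copies in the assembly. A family here is a set of regions linked by pairs that share at least 50% of the 24-base words of the smaller set. Members linked only through other regions may share fewer words, and F numbers are working names. The first 3 windows are tandem repeats that gained small RNAs in arid2/3/4, from the centromeric satellite family F341 (chr1:15085784-15085961), the chromosome 5 array F2295 (chr5:11855501-11855678) and the chromosome 4 array F1855 (chr4:2927794-2927971). The next comes from the chromosome 1 array F206, which had no region called (chr1:14734080-14734257). Another 2 come from families that lost small RNAs, the chromosome 4 array F1766 (chr4:1715060-1715237) and the dispersed family F50 (chr5:5429146-5429323). The last 3 are single regions, the most raised by fitted change (chr3:14203652-14203829), the most lowered by fitted change of log2(score + 89) (chr4:5560501-5560678) and one almost emptied (chr5:486501-486678).
F341: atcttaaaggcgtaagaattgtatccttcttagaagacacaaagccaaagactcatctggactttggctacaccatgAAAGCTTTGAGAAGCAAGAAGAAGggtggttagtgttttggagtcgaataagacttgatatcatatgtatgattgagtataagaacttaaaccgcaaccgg
F2295: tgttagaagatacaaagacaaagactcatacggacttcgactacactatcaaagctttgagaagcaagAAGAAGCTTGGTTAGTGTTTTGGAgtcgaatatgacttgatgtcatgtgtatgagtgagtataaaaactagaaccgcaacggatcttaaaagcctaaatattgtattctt
F1855: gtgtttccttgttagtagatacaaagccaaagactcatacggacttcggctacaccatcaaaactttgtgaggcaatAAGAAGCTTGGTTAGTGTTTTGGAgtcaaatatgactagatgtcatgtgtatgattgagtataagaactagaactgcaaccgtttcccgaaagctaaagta
F206: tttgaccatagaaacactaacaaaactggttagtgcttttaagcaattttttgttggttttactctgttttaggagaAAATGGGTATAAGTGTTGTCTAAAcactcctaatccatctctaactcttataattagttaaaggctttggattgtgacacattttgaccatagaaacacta
F1766: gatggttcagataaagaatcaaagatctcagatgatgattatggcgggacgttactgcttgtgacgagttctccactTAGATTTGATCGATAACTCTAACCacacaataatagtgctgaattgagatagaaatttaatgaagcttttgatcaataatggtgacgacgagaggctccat
F50: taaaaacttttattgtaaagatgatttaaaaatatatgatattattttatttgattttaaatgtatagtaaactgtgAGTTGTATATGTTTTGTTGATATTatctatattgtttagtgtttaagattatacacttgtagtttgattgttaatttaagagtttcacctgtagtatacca
Most raised region by fitted change: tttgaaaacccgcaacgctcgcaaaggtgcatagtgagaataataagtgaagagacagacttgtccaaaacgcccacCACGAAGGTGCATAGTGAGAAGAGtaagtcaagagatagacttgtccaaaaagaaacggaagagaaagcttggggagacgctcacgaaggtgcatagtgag
Most lowered region by fitted change: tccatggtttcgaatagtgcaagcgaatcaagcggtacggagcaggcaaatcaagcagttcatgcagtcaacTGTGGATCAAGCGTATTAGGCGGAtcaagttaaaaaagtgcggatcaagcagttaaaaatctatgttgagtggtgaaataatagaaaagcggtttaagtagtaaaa
Almost emptied region: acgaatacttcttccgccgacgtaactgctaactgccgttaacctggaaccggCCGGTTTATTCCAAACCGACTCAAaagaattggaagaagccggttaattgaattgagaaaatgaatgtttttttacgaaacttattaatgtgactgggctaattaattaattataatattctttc
The word in capitals in F2295 and F1855 is the same, with 598 copies in the assembly, and it is also the most copied word of a 4th raised family, F1950. The word of F341 has 532 copies and that of F206 has 401 copies, which F206 shares with 2 other chromosome 1 arrays, F299 and F305. In these windows the dinucleotide CG, the site of symmetric DNA methylation, occurs 4 times in F341, 5 times in F2295, 4 times in F1855 and 6 times in F1766, and not at all in F206 and F50.

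Small RNAs in arid2/3/4 rose near the centromeres and fell on the arms. Scores are treated here as the authors' normalized abundances per region, although their scaling is not stated. They had medians of 239 and 259 in arid2/3/4 and of 209 and 165 in WT over the 4213 regions, in repeats 1 and 2. The median ratio of arid2/3/4 to WT was 0.88 in repeat 1 and 1.19 in repeat 2, so the typical region lay on opposite sides of 1 in the repeats. With limma, on log2(score + 89) and at an adjusted p under 0.05, 1613 regions (38.3%) were raised, 1155 (27.4%) were lowered and 1445 were not called, so that 65.7% were called. Of the raised regions 1611 had a ratio above 1 in both repeats, and of the lowered ones 1150 had a ratio below 1 in both. A ratio of at least 2 in both repeats was found for 1087 raised regions, and a loss of at least 2-fold in both for 261 lowered ones. Raised regions made up 58.3% of calls, against 41.1% after scaling libraries to a common median (1574 raised, 2253 lowered) and 48.9% after quantile normalization (1583 raised, 1652 lowered). Those scalings moved the median fitted change over all regions from -0.01 to -0.29 and -0.10, and class medians below are to be read against that shift. The lowered count also rested on the first repeat, as it was 604 without repeat 1 of arid2/3/4 and 708 without repeat 1 of WT. Among the 3159 regions above the lower quartile of mean score 446 were lowered. Every tested region had a WT score of at least 95, so the regions all have small RNAs in WT, and none that is empty in WT is covered.

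The regions within 3 Mb of a centromere position, here called the pericentromere, held 1579 of the 1613 raised regions. Among its 2985 regions 1579 were raised and 522 lowered, with a median log2 change of 0.57 and median ratios of 1.57 and 2.02 in repeats 1 and 2. Of the 1228 arm regions 34 were raised and 633 lowered, with a median log2 change of -0.33 and median ratios of 0.59 and 0.81. After scaling to a common median the median was 0.27 for the pericentromere and -0.59 for the arms, and after quantile normalization 0.32 and -0.50, so each kept its sign. The count of lowered pericentromeric regions was less steady than the medians. It was 1110 at a common median, 851 after quantile normalization, 252 among regions above the lower quartile of mean score, 311 without repeat 1 of arid2/3/4 and 339 without repeat 1 of WT.

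The change fell off with distance from the centromere. At 0 to 0.5 Mb 865 of 1289 regions were raised and 20 lowered, with a median log2 change of 0.96, and at 0.5 to 1 Mb 357 of 454 were raised and 31 lowered, with a median of 0.94. From 1 to 2 Mb the directions were mixed, with 304 of 698 regions raised, 191 lowered and a median of -0.02. At 2 to 3 Mb, still inside the pericentromere, 53 of 544 were raised and 280 lowered, with a median of -0.35. The counts were 14 raised and 234 lowered of 431 at 3 to 5 Mb, and 20 raised and 399 lowered of 797 beyond 5 Mb, with medians of -0.35 and -0.33. The 3 shells beyond 2 Mb thus had much the same median. Across regions the Spearman correlation of the change with distance was -0.68 over all regions, -0.59 in the pericentromere and below 0.001 in size on the arms, as a description of regions that share libraries and repeats.

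**Figure D1:**
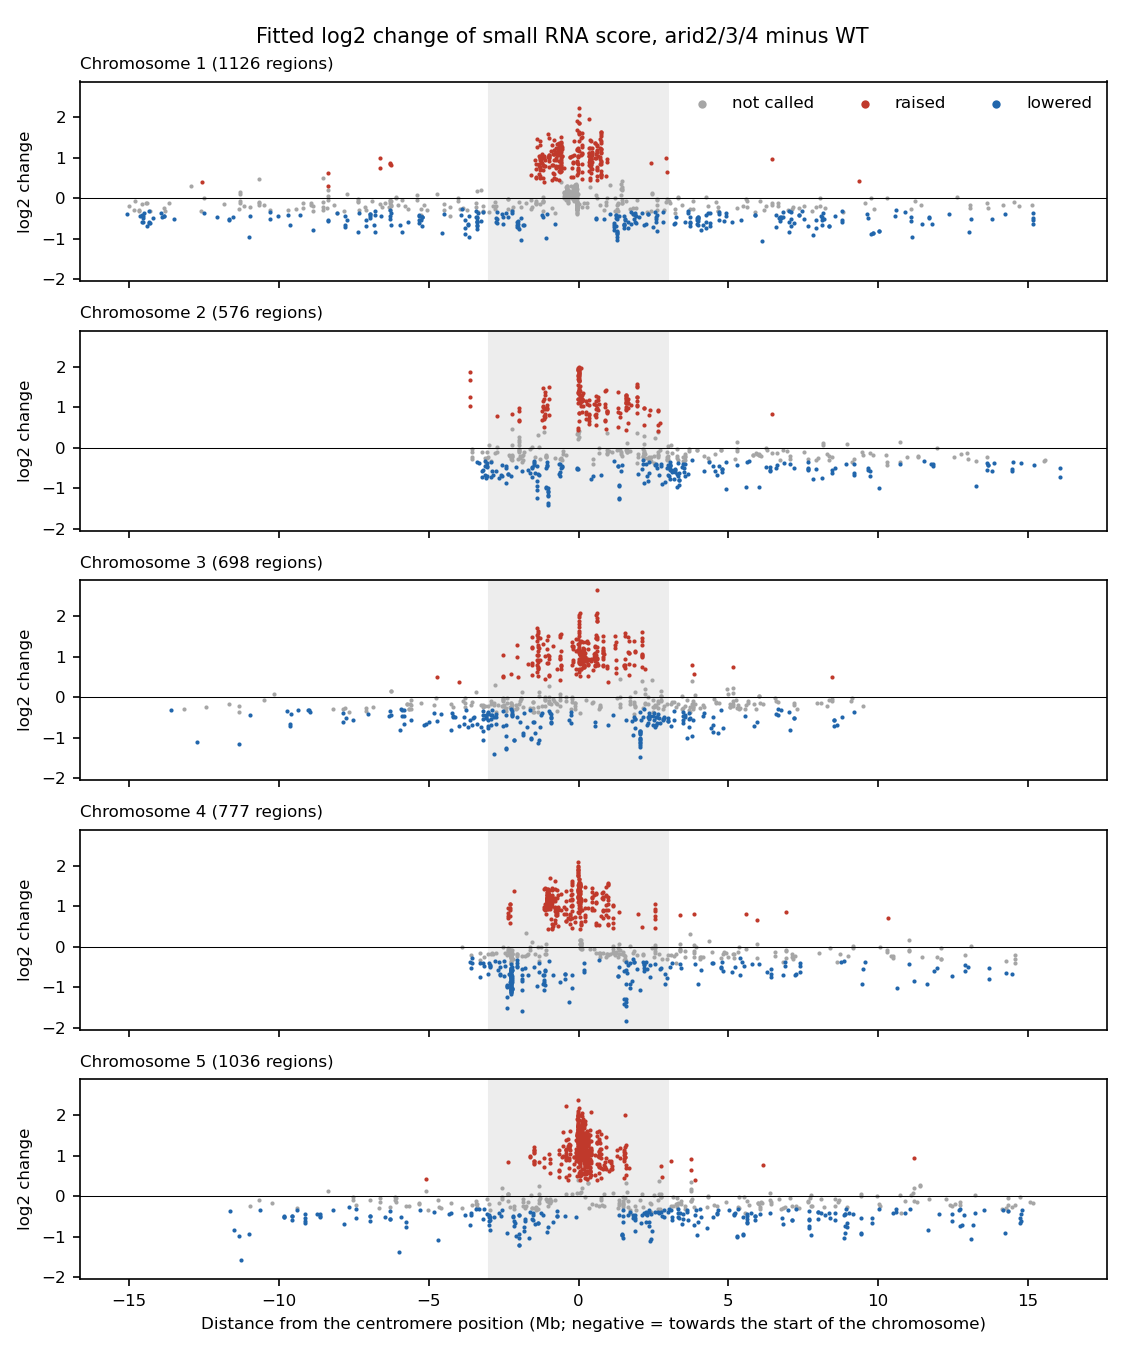
Fitted log2 change of score, arid2/3/4 minus WT, for each of the 4213 regions, against distance from the centromere position (Mb) on each chromosome. Red points are raised, blue lowered and grey not called, and the grey band marks 3 Mb on each side. Raised regions crowd around the centromere, lowered ones spread along the arms, and on chromosome 1 a block of grey points lies at the centre.

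Shares of the summed score do not depend on a single scaling factor per library, although quantile normalization, which was not applied to them, would change them. Regions within 3 Mb of a centromere held 84.7% and 85.2% of the summed score in the arid2/3/4 libraries, against 67.2% and 69.2% in the WT libraries. The mean was 84.9% ± 0.391 in arid2/3/4 and 68.2% ± 1.37 in WT (SD, n = 2 each), a difference of 16.8 percentage points, and of 17.5 and 16.1 within repeats 1 and 2. The groups did not overlap, yet an exact permutation test of 2 libraries against 2, two-sided, gave p = 0.333, the smallest p that this design allows. At 0 to 0.5 Mb the share was 57.4% ± 1.10 in arid2/3/4 and 35.9% ± 2.99 in WT. Beyond 5 Mb it was 10.3% ± 0.193 in arid2/3/4 and 21.8% ± 1.01 in WT. By chromosome the share was 18.9% ± 0.332 in arid2/3/4 and 23.7% ± 0.0898 in WT for chromosome 1, and 30.1% ± 0.0263 in arid2/3/4 and 24.8% ± 0.481 in WT for chromosome 5. For chromosome 2 it was 14.1% ± 0.217 in arid2/3/4 and 14.2% ± 0.0405 in WT, within the spread of the libraries.

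**Figure D2:**
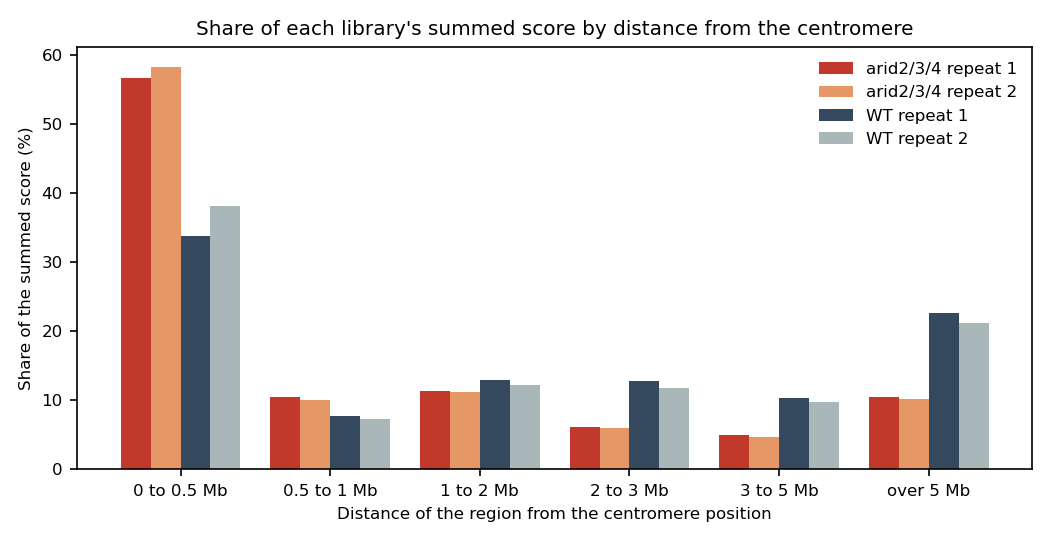
Share of each library's summed score (%) that fell in regions at 6 distances from the centromere, for both arid2/3/4 and both WT libraries. The arid2/3/4 bars average 57.4% at 0 to 0.5 Mb against 35.9% for WT, and the order turns round beyond 1 Mb.

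The values near the centromere varied by chromosome, and differences between chromosomes were not tested. On chromosome 5 450 of 464 regions within 0.5 Mb were raised and 2 lowered, with median scores of 587.5 and 680.5 in arid2/3/4 and of 200.0 and 186 in WT. On chromosomes 2 to 5 together 765 of 836 such regions were raised and 20 lowered, with a median log2 change of 1.19. On chromosome 1 100 of 453 regions within 0.5 Mb were raised and 0 lowered, with median scores of 253 and 288 in arid2/3/4 and of 223 and 188 in WT. Its median log2 change was 0.16, and it turned to -0.14 after scaling to a common median and -0.12 after quantile normalization. In the next shell of the same chromosome, at 0.5 to 1 Mb, 120 of 134 regions were raised, with a median of 1.03. Over whole chromosomes 272 of 1126 regions were raised and 277 lowered on chromosome 1, 173 and 198 of 576 on chromosome 2, 250 and 213 of 698 on chromosome 3, 363 and 218 of 777 on chromosome 4, and 555 and 249 of 1036 on chromosome 5. On the arms the chromosomes had median log2 changes between -0.28 on chromosome 4 and -0.36 on chromosomes 1 and 2.

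The repeats behind these blocks were described by family. The 4213 regions formed 2766 families, of which 285 held 2 or more regions (1732 regions in all). Of these 285, 108 had every region raised and 50 every region lowered, and 0 held both raised and lowered regions. Families outside the 285 cannot hold both directions, so they do not bear on that count. Near-identical copies share their reads, so members of a family are not independent measurements. A shared direction within a family was therefore likely beforehand. The 12 families of at least 30 regions, a limit set after values were seen, held 691 regions and are described below. Of these, 7 were raised almost throughout, 2 were mostly lowered and 3 had no region called.

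The centromeric satellite is the tandem repeat on which plant centromeres are built, and in Arabidopsis it has a unit of 178 bases. F341 is that satellite, with 75 regions at all 5 centromeres, within 0.097 Mb of the centromere position. Its median scores were 3861 and 4549 in arid2/3/4, against 1180 and 1114 in WT. All 75 regions were raised, with a median log2 change of 1.79 and a range of 1.16 to 2.39, and median ratios of 3.23 and 4.07. After scaling to a common median the median change was 1.38, and after quantile normalization 0.46. F1950, an array with the same 178-base spacing on chromosome 4 from 3967001 to 4011000, had median scores of 1600.5 and 2124.5 in arid2/3/4 and of 615 and 659.5 in WT, and all 44 regions were raised.

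Arrays that share their most copied word with F1950 rose as well. The F2295 window above also holds the capital word of F341. Along most of their length the F2295 and F1855 windows resemble the F341 window. These arrays are therefore taken as satellite copies, not as further kinds of repeat that rose. F2295 lies on chromosome 5 from 11824501 to 11960000, and its words recur most often 888 bases apart. Its median scores were 617.5 and 738.5 in arid2/3/4, against 172.5 and 192.5 in WT, and all 100 regions were raised, with a median log2 change of 1.52. F1855 lies about 1 Mb from the centromere of chromosome 4, from 2920501 to 2965000, and its words recur most often 1602 bases apart. It scored 457 and 572 in arid2/3/4 and 180 and 153 in WT, and all 71 regions were raised, with a median of 1.19. The shared word, shown in capitals above, thus lay in raised regions both at the centromere and about 1 Mb away. Families spread over several chromosomes, but with 0 regions on the arms, also rose. In F111, on chromosomes 1, 3, 4 and 5, 106 of 107 regions were raised (median 1.00), and 76 of its regions are on chromosome 5. In F131, on all 5 chromosomes, 61 of 61 were raised (median 1.17), and in F107 33 of 34 (median 0.71).

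The chromosome 1 arrays had no region called. F206 lies from 14659501 to 14820500, within 0.423 Mb of the centromere, and its words recur most often 318 bases apart. Its window above starts and ends on the same bases, so its unit may be shorter. Median scores were 287 and 319 in arid2/3/4, against 294 and 268 in WT, so the groups overlapped, and 0 of 53 regions were called. F299, from 14942001 to 14976500, scored 290.5 and 329 in arid2/3/4 and 273.5 and 252 in WT, and F305, from 14951001 to 14997500, scored 180.0 and 198 in arid2/3/4 and 158 and 134.5 in WT. In each of these 0 of 32 regions were called. Fitted changes had medians of 0.10, 0.17 and 0.27 in F206, F299 and F305, and of -0.21, -0.16 and -0.02 after scaling to a common median. A p that misses the threshold does not show that these arrays were unaffected.

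A pair of families went down. F1766 is a tandem array about 2.2 Mb from the centromere, and its words recur most often 1948 bases apart. It lies on the short arm of chromosome 4, from 1699501 to 1738500, in the part where the reference accession carries a heterochromatic knob. It scored 75.0 and 88.0 in arid2/3/4, against 303.5 and 185.5 in WT, with median ratios of 0.26 and 0.48. Of its 40 regions 35 were lowered and 0 raised, with a median log2 change of -0.87. F50 is dispersed over all 5 chromosomes, with 30 regions on the arms and 12 in the pericentromere, and has a median GC content of 22.8%. It scored 165.5 and 206 in arid2/3/4 and 318 and 340.5 in WT, and 34 of 42 regions were lowered, with a median log2 change of -0.56.

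**Figure D3:**
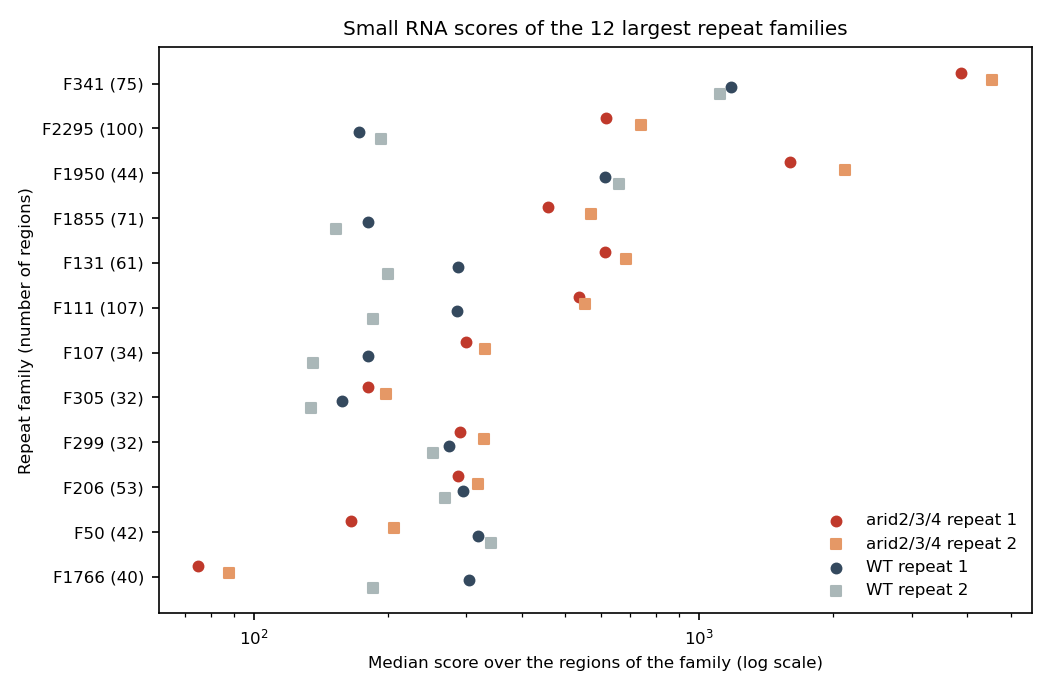
Median score over the regions of each of the 12 families with at least 30 regions, on a log scale, for each arid2/3/4 and WT library, with the number of regions in brackets. In F341 the arid2/3/4 medians are 3861 and 4549 and the WT medians 1180 and 1114, in the chromosome 1 arrays (F206, F299, F305) the points of both genotypes lie close together, and in F1766 and F50 the arid2/3/4 points lie below the WT points.

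Adjoining regions moved together over long stretches. Of 347 runs of at least 3 adjoining regions, 174 had every region raised, 52 every region lowered and 56 none called, and 1 held both directions. The longest run, 46 regions on chromosome 1 from 14723501 to 14746500, had 0 called. The next, 45 regions at the centromere of chromosome 4 from 3965501 to 3988000, had all 45 raised, with a median log2 change of 1.42.

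Base composition and copy number went along with the direction. With regions split by GC content into 5 classes of similar size, 2 of 848 in the lowest class (15.8% to 26.6%) were raised and 528 lowered. In the next class, up to 32.2%, 7 of 874 were raised and 315 lowered, and in the middle one, up to 36.0%, 319 of 830 were raised and 208 lowered. In the top classes, from 36.2% to 39.2% and from 39.4% to 62.4%, 680 of 854 and 605 of 807 were raised and 61 and 43 lowered. The same order held within the pericentromere, where 1 of 277 regions in the lowest class was raised and 185 lowered, against 588 of 730 raised and 26 lowered in the highest. On the arms 1 of 571 regions was raised and 343 lowered in the lowest class, and 17 of 77 were raised and 17 lowered in the highest. The Spearman correlation of the change with GC content was 0.66 over all regions, 0.59 for the pericentromere and 0.28 for the arms. With the number of CG dinucleotides it was 0.16, 0.14 and 0.26 over the same sets. GC content also bears on sequencing and on mapping, and its part in the result was not tested.

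**Figure D4:**
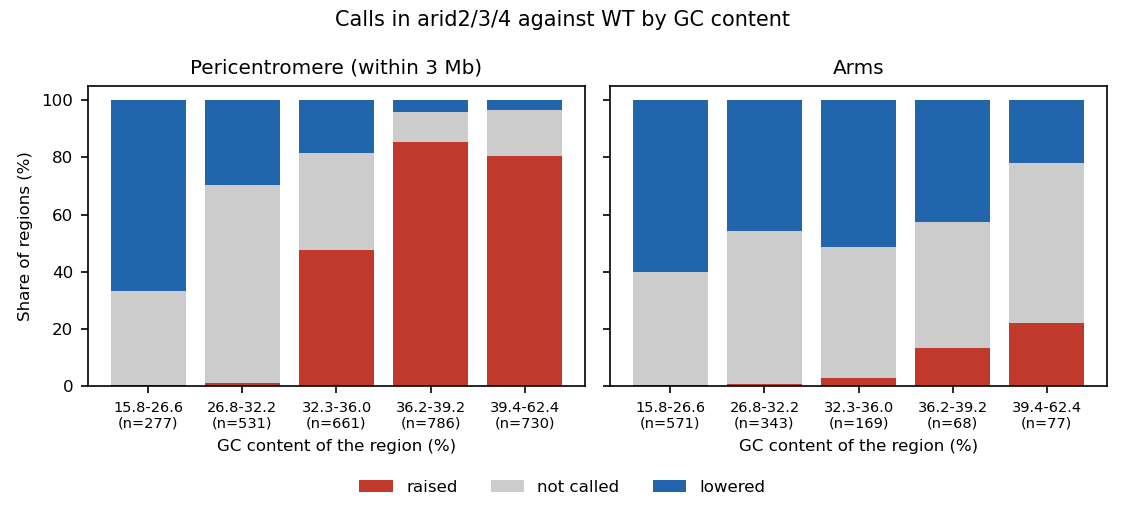
Share of regions (%) raised (red), not called (grey) and lowered (blue) in arid2/3/4 against WT, by class of GC content (%), for pericentromere and arms apart, with the number of regions under each bar. In the pericentromere 1 of 277 regions in the lowest class and 588 of 730 in the highest were raised.

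Mostly single-copy regions were rarely raised. Of the 301 mostly single-copy regions, in which at least 80% of 24-base words occur once, 1 was raised and 219 were lowered. Their median scores were 85.0 and 96.0 in arid2/3/4, against 200.0 and 139 in WT, with a median log2 change of -0.50 that was -0.69 after scaling to a common median and -0.49 after quantile normalization. Close to the centromere only 9 of them were found within 1 Mb, and 6 of these were lowered. The only raised one, on chromosome 5 from 12566501 to 12567000, scored 374 and 470 in arid2/3/4 and 272 and 190 in WT (log2 change 0.68 ± 0.21, SE, limma adjusted p = 0.00188). Over the mostly single-copy regions alone the pericentromeric median was -0.72, and the pericentromeric share of the summed score was 11.4 points lower in arid2/3/4 than in WT (difference -11.4), the reverse of the difference over all regions. In the pericentromere, regions whose words had a median of more than 30 copies were raised in 433 of 540 cases and lowered in 35, those with 11 to 30 copies in 621 of 1007 and 97, those with 4 to 10 copies in 339 of 666 and 83, those with 2 to 3 copies in 135 of 361 and 70, and those with 1 copy in 51 of 411 and 237. By copies in the assembly, gains thus reached down to regions of 2 to 3 copies. The region with the largest fitted rise, described below, is among them, but it lies beside rRNA genes. The assembly holds only a few copies of those genes, so its count there need not be its copy number in the plant. On the arms the regions with more than 30 copies were raised in 0 of 99 cases and lowered in 77.

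Calls also varied by annotation class. Regions overlapping pseudogenes, the class under which the annotation lists transposon remnants, transcribed pseudogenes included, were raised in 443 of 647 cases (68.5%) and lowered in 54 (8.3%), against 38.3% and 27.4% of all regions, with median scores of 352 and 363 in arid2/3/4 and of 194 and 133 in WT. Those 1 kb upstream of protein-coding genes were raised in 12 of 508 cases (2.4%) and lowered in 274 (53.9%), with scores of 123 and 136 in arid2/3/4 and of 215 and 165 in WT. Gene bodies were raised in 58 of 341 cases (17.0%) and lowered in 125 (36.7%). The remaining intergenic regions, raised in 1100 of 2717 cases (40.5%) and lowered in 702 (25.8%), were near the shares of all regions. Pseudogenes on the arms were raised in 21 of 82 cases and lowered in 21, and those of the pericentromere in 422 and 33 of 565. Only 19 regions overlapped a miRNA gene, of which 3 were raised and 5 lowered (26.3%, near the 27.4% of all regions).

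Among single regions, the largest gain lay beside ribosomal RNA genes on chromosome 3. AT3G06365, which the annotation gives as a non-coding RNA, holds the region from 14203501 to 14204000, which scored 1674 and 1436 in arid2/3/4, against 176 and 163 in WT. Both mutant libraries were thus far above both WT libraries, and the fitted log2 change was 2.67 ± 0.25 (SE), at a limma adjusted p of 2.4e-23. The region from 14206001, 1793 bp from that gene, scored 1541 and 1660 in arid2/3/4 and 355 and 262 in WT. Ribosomal RNA genes stand in long arrays at the nucleolus organizers, and the assembly holds only a few copies. All 16 regions within 10 kb of an annotated nuclear rRNA gene were raised, 12 on chromosome 3 and 4 on chromosome 2. Their gain was not particular to arid2/3/4. The median log2 change from WT was 1.36 in arid2/3/4, 1.42 in epcr1/2, 2.46 in hda6 and 0.11 in nrpe1. Against hda6, arid2/3/4 was lower at 9 of the 16 and higher at 3, where 7.19% of all regions were lower and 29.3% higher. On chromosome 2, close to the chromosome end, the region from 2001 to 2500, in a coding exon of AT2G01008, scored 1528 and 1431 in arid2/3/4 and 461 and 242 in WT (log2 change 1.88). Those 16 regions formed 9 families, and sequence is shared between the chromosomes, as the chromosome 3 region from 14196001 to 14196500 is in one family with the chromosome 2 region just named and scored 1644 and 1544 in arid2/3/4 and 465 and 245 in WT.

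The other most raised regions lay close to centromeres. On chromosome 5, 11729501 to 11730000, in F341, scored 2910 and 3628 in arid2/3/4 and 592 and 509 in WT (log2 change 2.39). On chromosome 1, 15086001 to 15086500, also in F341, scored 1334 and 1675 in arid2/3/4 and 275 and 218 in WT (2.24), although 455 of its 500 bases are unknown in the assembly. Chromosome 5 11324001 to 11324500, where MIR854b lies within the pseudogene AT5G29975, scored 1282 and 897 in arid2/3/4 and 214 and 115 in WT (2.23). On chromosome 4, 3955501 to 3956000 had the highest scores of the named regions, 4823 and 5476 in arid2/3/4 and 1224 and 1047 in WT (2.10). Chromosome 2 3626501 to 3627000 scored 2215 and 2458 in arid2/3/4 and 463 and 584 in WT (1.99), and chromosome 1 15417501 to 15418000, in the pseudogene AT1G40310, scored 940 and 717 in arid2/3/4 and 189 and 106 in WT (1.97). The arid2/3/4 and WT libraries did not overlap in any of these, which their choice as the strongest calls made likely.

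Raised regions were rare on the arms, with 34 of 1228. Of these 21 overlapped pseudogenes and 4 lay beside the rRNA genes of chromosome 2, and their median GC content was 39.3%. The most raised arm regions of the other chromosomes changed by less than those near centromeres. Chromosome 1 8457501 to 8458000, in a coding exon of AT1G23915, scored 357 and 329 in arid2/3/4 and 161 and 101 in WT (log2 change 0.99). Chromosome 5 22915501 to 22916000, in the pseudogene AT5G56605, scored 432 and 431 in arid2/3/4 and 226 and 140 in WT (0.95). Chromosome 4 10904001 to 10904500, in the pseudogene AT4G20180, scored 466 and 539 in arid2/3/4 and 314 and 178 in WT (0.85), and lost its call without repeat 2 of either genotype (adjusted p = 0.06 without that of arid2/3/4 and 0.07 without that of WT). Chromosome 3 17363501 to 17364000, in the pseudogene AT3G47165 and in one family with the chromosome 4 region, scored 284 and 311 in arid2/3/4 and 165 and 107 in WT (0.79).

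Most of the deepest losses were at regions with few copies elsewhere. Chromosome 4 5560501 to 5561000, 1796 bp from the pseudogene AT4G08692, scored 57 and 48 in arid2/3/4, against 486 and 348 in WT, the largest fitted fall (log2 change -1.83 ± 0.20, SE, limma adjusted p = 7.5e-17). Chromosome 5 486501 to 487000, 28 bp upstream of MYB3R-5 (a MYB transcription factor that represses cell-cycle genes), scored 2 and 2 in arid2/3/4 and 220 and 151 in WT. It was almost empty in both mutant libraries, and its log2 change of -1.58 understates the loss because 89 is added to each score. It was also almost empty in nrpe1 (1 and 0) and in hda6 (1 and 0), but not in epcr1/2 (97 and 111). Chromosome 4 2073501 to 2074000 scored 125 and 112 in arid2/3/4 and 655 and 426 in WT (-1.58), and chromosome 3 15633501 to 15634000, in the pseudogene AT3G43730, 90 and 102 in arid2/3/4 and 518 and 350 in WT (-1.48). On chromosome 3, 10753001 to 10753500 scored 85 and 85 in arid2/3/4 and 436 and 313 in WT (-1.40), and on chromosome 2, 2606001 to 2606500 scored 155 and 135 in arid2/3/4 and 598 and 473 in WT (-1.41). In all of these the mutant libraries lay below both WT libraries, which their choice as the strongest calls made likely. Scores under 10 in both libraries were found for 2 regions in arid2/3/4, against 219 in nrpe1, 14 in hda6 and 0 in epcr1/2. WT could have none, because every tested region scored at least 95 there. In arid2/3/4 the regions under 10 were the one beside MYB3R-5 and chromosome 4 3655501 to 3656000. The latter was listed at 0 in both arid2/3/4 libraries and at 185 and 101 in WT. That chromosome 4 region, in the pseudogene AT4G06597, was also listed at 0 in 1 of 2 epcr1/2 libraries (183 in the other), its words have a median of 1340 copies, and it is named here because of its values.

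**Figure D5:**
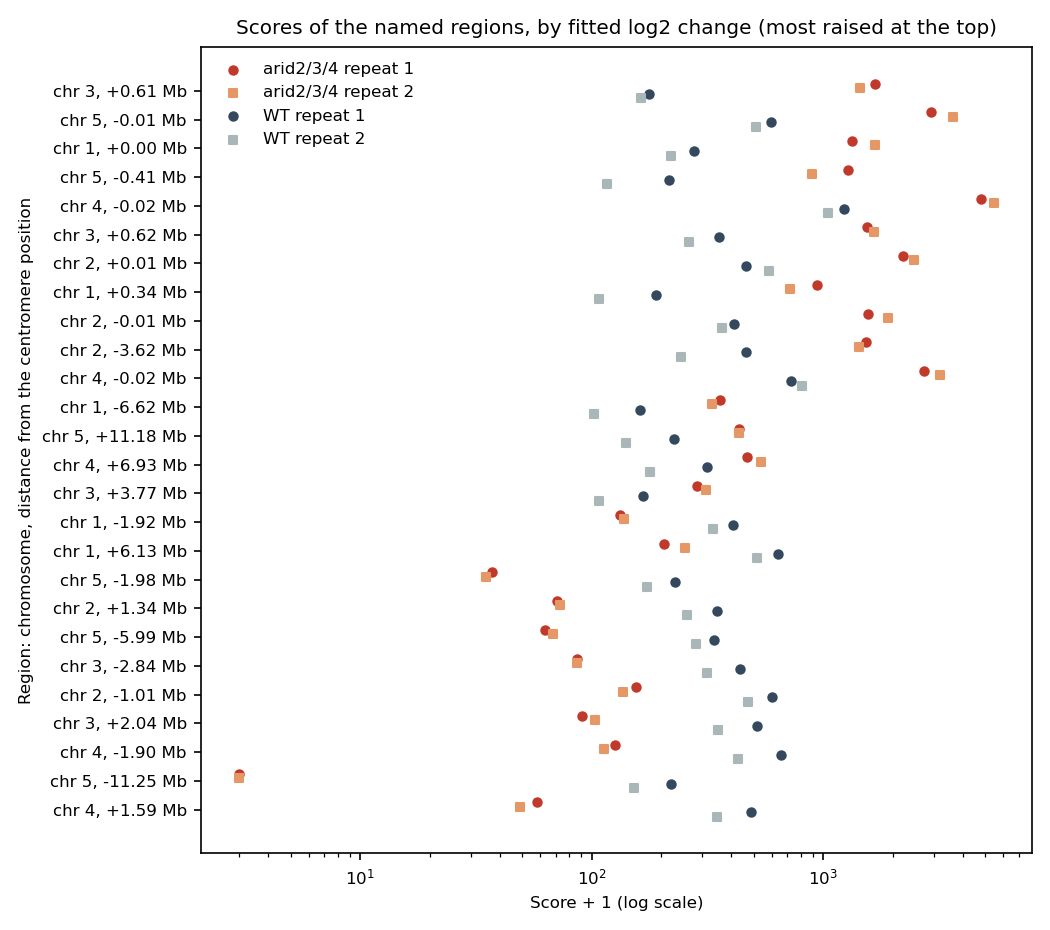
Score + 1 on a log scale for the 26 named regions in each arid2/3/4 and WT library, ordered by fitted log2 change with the most raised at the top and labelled by chromosome and distance from the centromere (Mb). The libraries of the genotypes do not overlap in any region, which the choice of strong calls made likely. The region beside MYB3R-5 on chromosome 5 has scores of 2 and 2 in arid2/3/4.

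A higher pericentromeric share was not particular to arid2/3/4. Regions within 3 Mb held 84.7% and 85.2% of the summed score in arid2/3/4, 84.8% and 84.1% in epcr1/2, 91.6% and 92.3% in nrpe1, 76.1% and 75.9% in hda6, and 67.2% and 69.2% in WT. The median log2 change from WT in the pericentromere was 0.57 in arid2/3/4, 0.86 in epcr1/2, 0.17 in nrpe1 and -0.20 in hda6, all against the same WT libraries. Where arid2/3/4 differed from the other mutants was tested directly in the same fit. Against epcr1/2, which lacks another subunit type of the same complexes, arid2/3/4 was higher at 238 regions (5.65%) and lower at 877 (20.8%), 26.5% in all. The centre of chromosome 1 held 347 of the 877 lower regions and 2 of the higher ones, and the centre of chromosome 5 held 139 of the 238 higher regions and 4 of the lower ones, each within 0.5 Mb of the centromere. F206 scored 287 and 319 in arid2/3/4 and 604 and 603 in epcr1/2, and all 53 of its regions were lower in arid2/3/4, with a median difference of -0.80. F299 and F305 were lower in 32 of 32 and 28 of 32 regions. F1766 scored 75.0 and 88.0 in arid2/3/4 and 356.5 and 417 in epcr1/2, and all 40 regions were lower in arid2/3/4 (median difference -1.52). F2295 went the other way, with scores of 617.5 and 738.5 in arid2/3/4 and 393 and 393.5 in epcr1/2, and 99 of 100 regions higher in arid2/3/4.

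Several lowered regions of the pericentromere scored far below epcr1/2. Chromosome 4 5560501 scored 57 and 48 in arid2/3/4 and 861 and 977 in epcr1/2 (difference -2.83, limma adjusted p = 1.7e-40). Chromosome 2 4964501 to 4965000 scored 70 and 72 in arid2/3/4 and 901 and 978 in epcr1/2 (-2.68), with 345 and 256 in WT. Chromosome 3 15633501 scored 90 and 102 in arid2/3/4 and 1072 and 1015 in epcr1/2 (-2.61), and chromosome 4 2073501 scored 125 and 112 in arid2/3/4 and 1029 and 1024 in epcr1/2 (-2.43). At these places the WT scores lay between those of the 2 mutants. The counts against epcr1/2 depended on scaling and on single libraries, with 1770 higher regions after scaling to a common median and between 20 and 427 higher when 1 library was left out. Without repeats 1 and 2 of arid2/3/4 in turn 83 and 20 were higher, without those of epcr1/2 112 and 45, and without either of nrpe1 427. The lower regions numbered 236 without repeat 1 of arid2/3/4 and 255 without repeat 2 of epcr1/2.

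Against nrpe1, arid2/3/4 was higher at 3237 regions (76.8%) and lower at 264 (6.27%), 83.1% in all, but after quantile normalization at 1013 and 931. On the arms it was higher at 1072 of 1228 regions and lower at 28. Against hda6 it was higher at 1234 regions (29.3%) and lower at 303 (7.19%), 36.5% in all, and after quantile normalization at 758 and 1085. F341 scored 3861 and 4549 in arid2/3/4 and 669 and 768 in hda6, and all 75 regions were higher in arid2/3/4, with a median difference of 2.42. At the most raised region, chromosome 3 14203501, the order was not the same, with scores of 1674 and 1436 in arid2/3/4 and 2106 and 1678 in hda6, which did not pass the test (adjusted p = 0.409, limma). Without repeat 1 of hda6 the counts were 668 higher and 90 lower, and without repeat 2 they were 684 and 58. Without repeat 2 of arid2/3/4 681 were higher, and without repeat 1 of arid2/3/4 64 were lower.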

How the data were processed

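The deposited tables, 1 per repeat, hold a score per 500 bp region and library. It is treated here as the authors' normalized small RNA abundance, rounded to whole numbers. Whole numbers recur with a regular period in 5 of the columns, as scaled counts do, which does not show scaling for the other columns. The authors mapped reads with Bowtie 0.12.2 to TAIR10, per the submitters' processing notes. Read sizes, the treatment of reads with several positions, the scaling and the choice of regions are not stated in any source used here. Depth is therefore unknown and no counting interval is given. Over the tested regions the lowest score was 0 in both arid2/3/4 libraries, and 95 and 98 in the WT libraries, so regions with small RNAs in arid2/3/4 but few in WT are not analysed here.

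From the scores, log2(score + 89) was computed, 89 being the 25th percentile of scores above 0. A limma 3.58.1 fit (R 4.3.3, trended prior) over 10 libraries, without nrpd1, whose near-0 scores compress the spread, had the repeat as a block and 4 residual degrees of freedom. The prior had infinite degrees of freedom, so very small p-values rest on the trend with mean score. Benjamini-Hochberg adjustment ran over all 4213 regions. Residuals of arid2/3/4 and WT from their group means correlated by 0.36 within a repeat. With 2 libraries per genotype the residuals of the repeats mirror each other, so both repeats give the same single value. The labels do not say that numbers mark pairs.

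Positions, counted from 0 in the tables, are given counted from 1. Genes, sequence and copy numbers come from RefSeq TAIR10.1. The centromere position of a chromosome is the median position of 24-base words repeated 178 bases on (15.1, 3.62, 13.6, 3.97 and 11.7 Mb on chromosomes 1 to 5). Named regions were taken from called regions whose ratio lay, in both repeats, on the side of 1 given by the fit. They are, on each chromosome, the 2 most raised and 2 most lowered regions of different families and over 2 kb apart. The most raised arm and most lowered pericentromeric region of each chromosome were added. The members, classes and lists were chosen with earlier results of these data known.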

Additional observations from a re-analysis of the deposited data

Results flagged for a closer look

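Pericentromeric regions listed for 1 repeat alone, outside the main comparison, gave ratios that differed in direction. The 1174 pericentromeric regions listed for repeat 1 alone, and so without a second repeat, had a median ratio of arid2/3/4 to WT of 1.84, with median scores of 213.5 in arid2/3/4 and 116 in WT. The 180 pericentromeric regions listed for repeat 2 alone went the other way, with a median ratio of 0.69. Their median scores were 83 in arid2/3/4 and 113 in WT. Neither difference has a replicate check. Both WT medians lay close to the lowest WT scores of the tested regions, 95 and 98. If regions were listed for their WT score in that repeat, the same score also enters the ratio, which was not tested. On the arms the median ratio was 0.54 for regions listed for repeat 1 alone and 0.53 for repeat 2 alone.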

How the results depend on the processing

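Of 517 values of the 26 named regions under 21 alternatives, 515 kept direction and call, 2 lost the call and 0 reversed. Those regions were chosen as the strongest calls of the same data, so this was likely beforehand and does not speak for other regions. Without the replicate block 1609 regions were raised and 1130 lowered, and the block changed no call by over 1.5 times. With libraries scaled to a common median, 2253 regions were lowered (1110 in the pericentromere, 1143 on the arms), 1770 were higher than epcr1/2, 838 lower than nrpe1 and 1289 lower than hda6. Quantile normalization gave 851 lowered in the pericentromere, and 495 higher and 537 lower than epcr1/2, 1013 and 931 against nrpe1, and 758 and 1085 against hda6. Among regions above the lower quartile of mean score 446 were lowered (252 in the pericentromere, 194 on the arms). With 1 region per family 824 were raised (809 in the pericentromere, 15 on the arms), 92 were higher and 474 lower than epcr1/2, and 543 higher than hda6. With mostly single-copy regions fitted alone, 1 was raised (1 in the pericentromere, 0 on the arms) and 208 lowered (119 and 89), 26 were higher and 94 lower than epcr1/2, 213 and 72 against nrpe1, and 25 and 41 against hda6. There the share difference reversed to -11.4 points and the pericentromeric median to -0.72. Fewer regions enter the last 3 alternatives. With only the groups compared in the fit, 382 arm regions were lowered, with 824 higher and 1643 lower than epcr1/2, 1656 and 132 against nrpe1, and 2245 and 561 against hda6. A limit of 2 Mb gave 242 lowered in the pericentromere and 87 raised on the arms, and 4 Mb gave 21 raised on the arms. Leaving out 1 library gave 1417 to 1651 raised (1402 to 1612 in the pericentromere, 15 to 39 on the arms) and 604 to 1261 lowered (311 to 571 and 293 to 690), with 20 to 427 higher and 236 to 1104 lower than epcr1/2, 2427 to 3399 and 196 to 357 against nrpe1, and 668 to 1694 and 58 to 432 against hda6, and a share difference of 15.8 to 17.7 points. The fewest raised arm regions, 15 and 17, came without repeat 2 of arid2/3/4 and of WT. The cause of these shifts was not tested. Depth is unknown, so precision rests on 2 libraries per genotype.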
